A study of Mus musculus with 6 samples.

Results

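Granule neurons are the small excitatory neurons of the cerebellar cortex, and the 10 genes described here are factors and markers of these cells after their last division. The members were the rows of the deposited expression table whose gene name, split at commas, holds a listed symbol. All 10 were found, each at 1 locus, among 23793 loci. They were set out in 2 groups by when they are known to appear. The 5 early members were Neurod1, Cntn2, Nhlh1, Nhlh2 and Sema6a, and the 5 late members were Neurod2, Rbfox3, Cbln1, Cbln3 and Gabra6. The values were read as FPKM, fragments scaled for transcript length and for the size of the library, so levels of different genes can be set side by side.

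The tissue was the cerebellum at postnatal day 0, with 3 control libraries (Zeb2 f/+; hGFAP-cre) and 3 conditional knockout libraries (Zeb2 f/f; hGFAP-cre, called cKO below). The cKO animals carried 2 floxed alleles of Zeb2, a zinc finger transcription factor, and the controls carried 1 floxed and 1 wild-type allele. Every library came from an animal with Cre, so the controls were not free of recombination. Cre was driven by the human GFAP promoter, which is known to act in radial glia and in the progenitors of granule neurons. The labels do not give the share of cells that recombined, nor whether the libraries are from different animals, and p-values thus reflect only how these libraries vary.

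Granule neurons arise from progenitors that divide in the external granular layer on the surface of the cerebellum. Cells that leave the cycle move to the inner part of that layer, switch on early factors and adhesion molecules, extend axons and then migrate inwards past the Bergmann glia. Synaptic genes and receptor subunits of the mature cell follow later, mostly after birth in the mouse. Several members are also expressed by other neurons: Neurod1 by unipolar brush cells, and Rbfox3 and Neurod2 by neurons of many regions.

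Of the members, 4 are basic helix-loop-helix factors, a family that binds E-box motifs, and Zeb2 binds a related motif. The 250 bases before the RefSeq start site (GRCm38.p6) were therefore searched on both strands for the E-box favoured by Neurod factors (CATCTG or CAGATG) and for the E2-box of Zeb factors (CACCTG or CAGGTG). The promoter table held 8 of the 10 members, without Cbln1 and Sema6a. The Neurod E-box was found in 3 of the 8 (37.5%), against 14.4% of all 32851 promoters in the table. The Zeb E2-box was found in 1 of the 8 (12.5%), against 17.2% of all promoters. That match was in Rbfox3, where the start site used lies inside the GENCODE M21 span of the gene (chromosome 11, 118489762 to 118911597, minus strand). The 4 promoters with a match are shown because they hold the gene with the largest difference of the early group (Nhlh2), its closest relative (Nhlh1) and a late member of each motif. Capitals mark the motif, and each sequence runs 5′ to 3′ on the strand of the gene.
Nhlh2 (chr3:102009895-102010144, plus strand): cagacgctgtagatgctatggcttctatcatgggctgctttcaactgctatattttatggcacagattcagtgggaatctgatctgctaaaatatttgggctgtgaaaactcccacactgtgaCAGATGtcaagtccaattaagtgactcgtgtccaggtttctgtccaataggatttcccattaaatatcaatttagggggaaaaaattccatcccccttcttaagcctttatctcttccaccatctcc
Nhlh1 (chr1:172057597-172057846, minus strand): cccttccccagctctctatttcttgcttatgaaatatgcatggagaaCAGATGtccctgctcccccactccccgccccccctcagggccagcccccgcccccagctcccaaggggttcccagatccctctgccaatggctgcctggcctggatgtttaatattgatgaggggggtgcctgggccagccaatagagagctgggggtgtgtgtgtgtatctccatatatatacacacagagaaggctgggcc
Neurod2 (chr11:98329646-98329895, minus strand): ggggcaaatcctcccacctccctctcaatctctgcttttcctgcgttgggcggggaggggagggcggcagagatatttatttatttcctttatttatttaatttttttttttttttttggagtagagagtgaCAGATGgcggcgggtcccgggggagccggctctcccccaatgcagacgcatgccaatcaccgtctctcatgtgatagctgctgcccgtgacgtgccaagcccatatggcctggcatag
Rbfox3 (chr11:118761042-118761291, minus strand): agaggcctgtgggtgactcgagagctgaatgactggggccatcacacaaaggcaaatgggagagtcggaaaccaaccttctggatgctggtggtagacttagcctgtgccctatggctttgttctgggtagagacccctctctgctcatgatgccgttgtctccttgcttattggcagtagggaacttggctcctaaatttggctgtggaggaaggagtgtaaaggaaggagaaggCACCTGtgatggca
The motif began 127 bases before the RefSeq start of Nhlh2, 203 before that of Nhlh1, 118 before that of Neurod2 and 14 before that of Rbfox3. The RefSeq starts of Nhlh2 and Neurod2 also lie inside the GENCODE spans, which begin at 102010076 (plus strand) and 98329648 (minus strand). Their motifs thus lie nearer to the GENCODE starts. A match describes these letters and is no measurement of binding.

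The targeted gene was read first. Zeb2 stood at 11.4, 9.52 and 7.995 FPKM in control libraries 1 to 3 and at 6.19, 3.89 and 5.81 FPKM in cKO libraries 1 to 3, with every cKO value under every control value (log2 fold change -0.77, SE 0.18, limma adjusted p = 0.107). Xist lay between 0.331 and 0.515 FPKM in the controls and between 142 and 147.5 FPKM in cKO, while the Y-linked gene Eif2s3y lay between 34.4 and 37.2 FPKM in the controls, with a cKO maximum of 0.108. The Y-linked genes Ddx3y, Kdm5d and Uty passed as lower in cKO too. Sex went with genotype in these libraries, and their effects cannot be told apart below. Over the 13612 loci tested (1 FPKM or more in 3 or more libraries), library cKO 3 correlated at r = 0.952 with each of the other cKO libraries and at 0.950 to 0.956 with the controls (across loci, which are not independent replicates). Values without cKO 3 are given for the members whose log2 fold change then turned its sign or moved by over 1.5 times. Low values fell into 2 sets by the size of their smallest steps, control 1 with cKO 3 and the remaining 4 libraries, so values within these sets are given for the members that results turn on.

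The tissue label was read against marker genes. Zic1, a transcription factor of granule cells and their progenitors, lay between 263 and 313 FPKM over the 6 libraries, and Pcp2, a Purkinje cell gene, between 132 and 166 FPKM. The forebrain genes Emx1 and Emx2 were at most at 0.115 and 0.0155 FPKM in any library. Neurod6, a relative of Neurod1 and Neurod2 that is also known from the forebrain, was nevertheless at 14.0 to 17.2 FPKM. In RNA of whole tissue, fewer cells of a type and less RNA per cell cannot be told apart.

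The members covered a range of levels from Cbln1 to Gabra6. In the controls the order by mean FPKM was Cbln1 (173 ± 12.0), Neurod1 (112 ± 2.20), Neurod2 (64.9 ± 3.23), Sema6a (39.5 ± 0.770), Rbfox3 (38.2 ± 2.43), Cntn2 (26.1 ± 3.21), Nhlh2 (25.3 ± 1.87), Nhlh1 (21.05 ± 1.28), Cbln3 (1.91 ± 0.206) and Gabra6 (0.0596 ± 0.0261), each with its SD over n = 3. The ranges of Sema6a and Rbfox3 overlapped, as did those of Cntn2 and Nhlh2, and all other neighbours in this order were apart. In cKO, Rbfox3 stood above Sema6a by its mean (41.4 ± 2.47 and 38.0 ± 2.76 FPKM), with overlapping ranges. There Nhlh2 and Nhlh1 had equal means within their spread (19.4 ± 0.906 and 19.4 ± 1.92 FPKM, SD, n = 3), while in the controls every value of Nhlh2 lay above every value of Nhlh1. The late members thus included both the most and the least abundant gene.

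**Figure D1:**
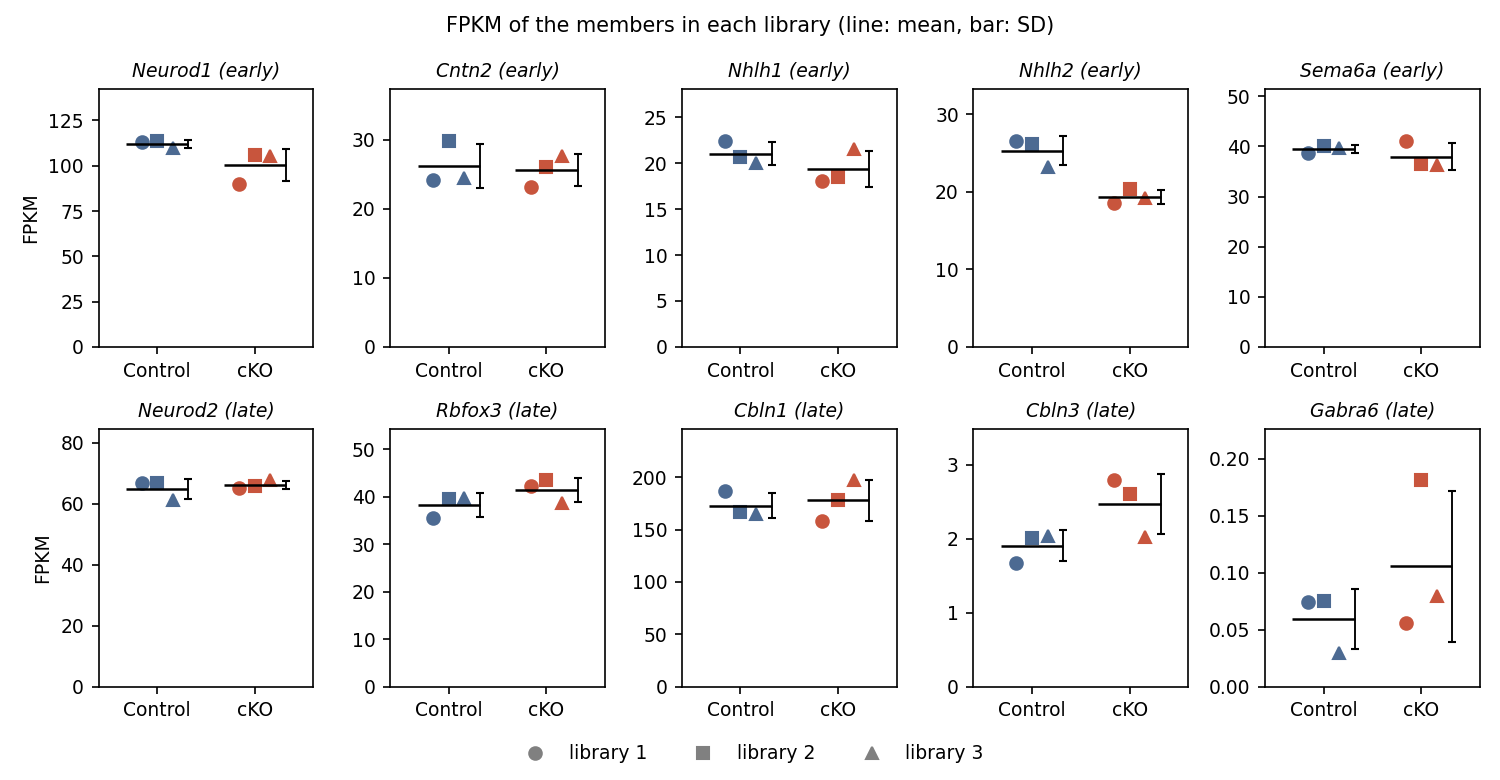
FPKM of the 10 members on linear axes that start at 0, with 1 point per library (circle, square and triangle for libraries 1, 2 and 3), the mean as a line and the SD as a bar. Nhlh2 and Neurod1 are the members whose cKO points all lie under the control points, and Gabra6 lies under 0.2 FPKM in every library.

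None of the members passed the test between genotypes, for which the adjusted p had to be 0.05 or less (limma on log2(FPKM + 1), Benjamini-Hochberg over all 13612 loci tested). Of all loci tested, 78 passed, which is 0.573% (33 higher, 0.242%, and 45 lower, 0.331%). Gabra6 missed the filter on low values and has no test. Before adjustment 1 of the 9 tested members, Nhlh2, had a limma p under 0.05, as had 17.6% of all loci tested (9.79% with cKO lower and 7.82% with cKO higher). By sign, all 5 early members had negative log2 fold changes (median -0.12) and the 4 tested late members had positive ones (median 0.07). Over all loci tested, 53.0% were negative and the median was -0.01.

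Nhlh2, a helix-loop-helix factor of newly formed neurons (GRCm38 chromosome 3, 102010076 to 102015492, plus strand, protein-coding), had the largest difference among the early members. Control libraries 1 to 3 gave 26.6, 26.2 and 23.2 FPKM, and cKO libraries 1 to 3 gave 18.6, 20.4 and 19.3 FPKM. All 3 cKO libraries were low and the groups did not overlap, with the highest cKO value under the lowest control value. The cKO mean was 76.6% of the control mean. The log2 fold change was -0.37 (SE 0.07, 95% interval -0.53 to -0.20), with a limma adjusted p of 0.0762, and 3.27% of all loci tested had a lower log2 fold change. By an exact permutation test (two-sided) p was 0.1, which is the lowest value possible for 3 libraries against 3. Nhlh2 passed in a fit without small-RNA loci (limma adjusted p = 0.0369) and with robust variance estimation (0.0315), settings that raised the share of loci called to 2.43 and 2.47% (lower in cKO, 1.47 and 1.51%). Its adjusted p ranged up to 0.266 over the alternatives. Its log2 fold change was -0.33 within the set of 4 libraries, and in the other set cKO 3 lay 0.45 log2 units under control 1 (-0.45, cKO minus control, 1 library each).

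Nhlh1, the other Nhlh factor (GRCm38 chromosome 1, 172052292 to 172057573, minus strand), gave 22.5, 20.7 and 20.0 FPKM in control libraries 1 to 3, against 18.0, 18.5 and 21.6 FPKM in cKO libraries 1 to 3. Libraries cKO 1 and cKO 2 lay under all controls, while cKO 3 lay within their range. The log2 fold change was -0.12 (SE 0.08, limma adjusted p = 0.504), with a 95% interval from -0.31 to 0.08. It was -0.19 without cKO 3, -0.070 without cKO 1 and -0.071 without control 1. The ratio of Nhlh2 to Nhlh1, a measure chosen after the values were seen and not tested, was 1.16 to 1.26 in the controls and 0.893 to 1.10 in cKO. The transcripts of these genes share no run of 36 bases in GENCODE M21, and no exon of another gene overlaps either of them.

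Neurod1, a factor that promotes the differentiation of granule cells (GRCm38 chromosome 2, 79452521 to 79456751, minus strand), gave 112.9, 113.9 and 109.7 FPKM in control libraries 1 to 3, against 90.1, 105.8 and 105.6 FPKM in the cKO libraries. Every cKO library was under every control library, and cKO 1 was the lowest of all. Groups without overlap and with cKO lower occurred in 2 of the 9 tested members, against 13.6% of all loci tested, and no tested member had its groups apart with cKO higher (10.3% of all loci). The log2 fold change of Neurod1 was -0.16 (SE 0.07, 95% interval -0.33 to 0.01, limma adjusted p = 0.318) and it was -0.08 without cKO 1. It was -0.19 within the set of 4 libraries and -0.095 between control 1 and cKO 3. Exons of Cerkl on the same strand and of Gm26755 on the opposite strand overlap 7.37 and 5.64% of its exonic bases.

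The adhesion and guidance genes of the early group differed less. Cntn2, also called TAG-1, an adhesion molecule on the axons of newly formed granule cells, gave 24.2, 29.8 and 24.4 FPKM in control libraries 1 to 3 and 23.1, 26.1 and 27.6 FPKM in cKO. The groups overlapped widely and control 2 was the highest library. Its log2 fold change was -0.03 (SE 0.10, adjusted p = 0.923), with an interval from -0.27 to 0.21, and its sign turned without control 2 (0.07) or without cKO 1 (0.04), while it was -0.08 without cKO 3. Sema6a, a transmembrane semaphorin of granule cells that are about to migrate inwards, gave 38.6, 40.1 and 39.7 FPKM in control libraries 1 to 3, against 41.2, 36.5 and 36.3 FPKM in cKO libraries 1 to 3. Libraries cKO 2 and cKO 3 lay under all controls and cKO 1 lay above them. Its log2 fold change was -0.06 (SE 0.06, adjusted p = 0.680), with an interval from -0.20 to 0.09. With cKO 1 left out it was -0.11, and it shrank to -0.029 with cKO 2 left out and to -0.026 without cKO 3.

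Among the late members, the largest difference was that of Cbln3, a cerebellin made by granule cells that is secreted together with Cbln1 (GRCm38 chromosome 14, 55878913 to 55884392, minus strand). The controls gave 1.67, 2.01 and 2.04 FPKM and the cKO libraries gave 2.79, 2.61 and 2.02 FPKM. Libraries cKO 1 and cKO 2 were above all controls, and cKO 3 lay within the control range. The log2 fold change was 0.25 (SE 0.11, 95% interval -0.0048 to 0.51, limma adjusted p = 0.291) and 0.35 without cKO 3. At this level the pseudocount of 1 weighs on the fold change, which was also 0.35 at a pseudocount of 0.1. Within the set of 4 libraries it was 0.29, and between control 1 and cKO 3 it was 0.18. Some 94.7% of all loci tested had a lower log2 fold change than Cbln3.

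Cbln1, a secreted protein that holds the synapses between granule cell axons and Purkinje cells together, gave 187, 167 and 165 FPKM in control libraries 1 to 3, against 158, 178 and 197 FPKM in the cKO libraries. The cKO libraries held both the lowest and the highest value. Its log2 fold change was 0.04 (SE 0.09, adjusted p = 0.871), with an interval from -0.19 to 0.26, and it was -0.04 without cKO 3. Among its relatives, Cbln2 and Cbln4 had log2 fold changes of 0.12 and 0.11, and neither passed (adjusted p = 0.573 and 0.725). Their signs turned within the set of 4 libraries (-0.015 and -0.037), and without cKO 3 they were at 0.021 and -0.034.

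Neurod2 and Rbfox3 are markers that stay on in mature neurons. Neurod2, a relative of Neurod1 needed for the survival of granule cells, gave 66.9, 66.7 and 61.2 FPKM in control libraries 1 to 3, against 65.2, 65.8 and 67.7 FPKM in cKO libraries 1 to 3. Libraries cKO 1 and cKO 2 lay within the control range and cKO 3 just above it, and the log2 fold change was 0.03 (SE 0.05, adjusted p = 0.819, interval -0.10 to 0.16). It was 0.014 without cKO 3 and turned to -0.012 without control 3 and to -0.028 in the first deposit alone (control and cKO libraries 1 and 2). Rbfox3, the splicing factor detected by the NeuN antibody, gave 35.4, 39.6 and 39.7 FPKM in control libraries 1 to 3, against 42.2, 43.4 and 38.7 FPKM in cKO libraries 1 to 3. Libraries cKO 1 and cKO 2 were above all controls, and its log2 fold change was 0.11 (SE 0.07, adjusted p = 0.442, interval -0.05 to 0.28). It was 0.06 without control 1.

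Gabra6, the GABA-A receptor subunit that marks mature granule cells, was near the floor of the data. It was listed at 0.0746, 0.0747 and 0.0294 FPKM in the controls and at 0.0562, 0.181 and 0.0798 FPKM in cKO. The groups overlapped, cKO 2 was the highest library, and no fold change is given at such values. Other late genes stood on either side of that floor. The receptor subunits Gabrd, Grin2a and the cadherin Cdh15 missed the filter too, with control means of 0.377, 0.720 and 0.197 FPKM. Vsnl1, a calcium sensor gene of the same list, was well above it, at 25.2 ± 2.10 FPKM in the controls (SD, n = 3).

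**Figure D2:**
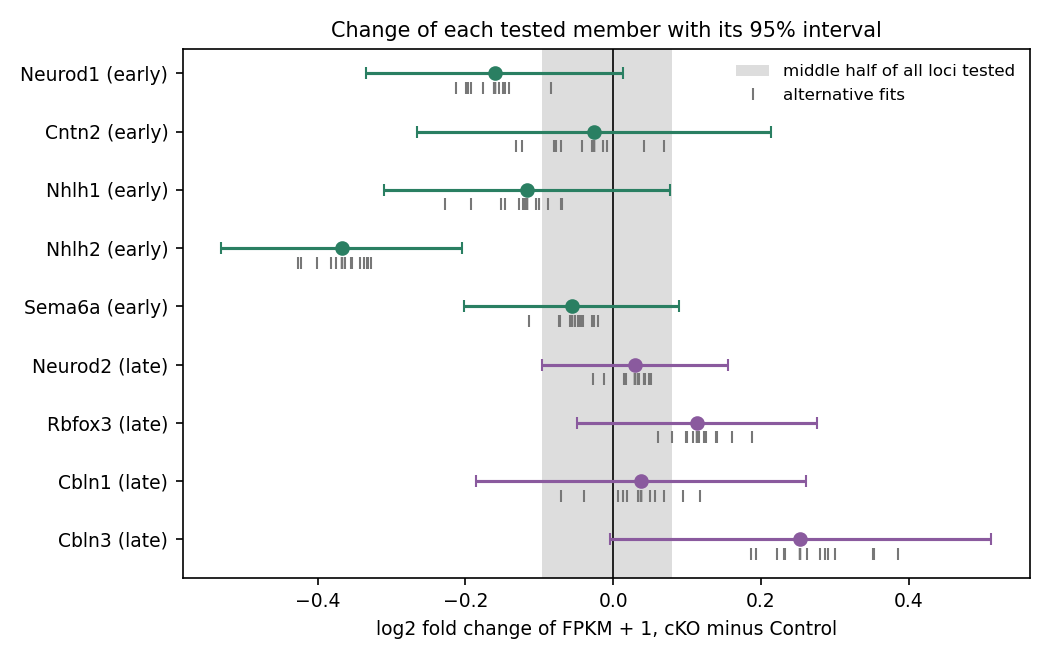
Log2 fold change of FPKM + 1 (cKO minus control) of the 9 tested members, with early members in green and late members in purple, the 95% interval as a bar, the values under the alternative fits as grey ticks and the middle 50% of all loci as a grey band from -0.10 to 0.08. The interval of Nhlh2 lies wholly under 0, and the points of the early members lie left of those of the late members.

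Early and late members were also read library by library, as the median over the members of log2(FPKM + 1) minus its control mean. For the 5 early members this was 0.01, 0.02 and -0.07 in control libraries 1 to 3 and -0.21, -0.11 and -0.09 in cKO libraries 1 to 3. For the 4 late members it was -0.03, 0.04 and -0.0050 in the controls and 0.07, 0.11 and 0.06 in cKO. Late minus early was therefore -0.04, 0.02 and 0.07 in the controls and 0.28, 0.22 and 0.14 in cKO, with the gap widest in cKO 1 and narrowest of the cKO libraries in cKO 3. No test was made of this gap, since the members were chosen with results of these data known. In the fitted values the early and the late medians were 0.19 log2 units apart, or 0.20 with Neurod2 counted among the early members. Library cKO 1, with the lowest early median, held the lowest value of 5 of the 9 tested members and also had the lowest sum over all loci (497542 FPKM, against 519248 to 524474 in the others). With the libraries scaled by median ratios, by factors of 0.993 to 1.01, the signs of all 9 stayed as given.

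**Figure D3:**
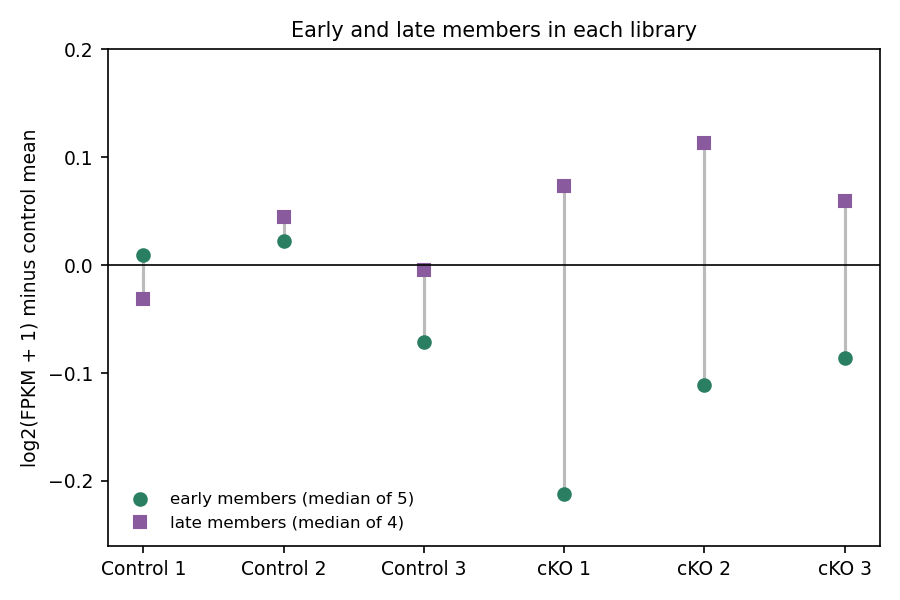
Median of the 5 early members (circles) and of the 4 tested late members (squares) in each library, as log2(FPKM + 1) minus the control mean of each gene. The grey line joins the values of a library, and it is longest in cKO 1, where the early median is -0.21 and the late median 0.07.

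Other genes of granule neuron differentiation were taken from lists that were written with earlier results of these data known. They are thus no independent check of the members. Of 24 other early genes, all tested, none passed by limma (before adjustment 1 higher and 4 lower had a p under 0.05), 11 were positive and 13 negative, and the median log2 fold change was -0.02. Rnd2, a small GTPase of migrating neurons, was closest to the threshold, with 131, 130.4 and 132 FPKM in control libraries 1 to 3 against 107, 109 and 105 FPKM in the cKO libraries. Its values were low in every cKO library and the groups were far apart for their spread, with a log2 fold change of -0.29 (SE 0.05, limma adjusted p = 0.0537). With small-RNA loci left out its adjusted p was 0.0276. Astn1, a neuronal receptor for migration along glia, went the other way, at 37.5 ± 1.15 and 44.5 ± 1.85 FPKM (SD, n = 3 each; log2 fold change 0.24, adjusted p = 0.0947). Plxna2, the receptor of Sema6a on granule cells, had a log2 fold change of -0.23 (adjusted p = 0.182), and Mdga1, an adhesion gene, of -0.29 (adjusted p = 0.232).

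Of 26 other late genes, 24 loci were tested and none passed by limma (before adjustment 5 higher and 0 lower had a p under 0.05). Of these loci 22 had positive log2 fold changes and 2 negative ones, with a median of 0.09. Slc17a7, the vesicular glutamate transporter of mature granule cells, gave 6.78, 6.11 and 6.11 FPKM in control libraries 1 to 3, against 9.58, 8.69 and 8.05 FPKM in cKO libraries 1 to 3. All cKO libraries were above all controls, and the log2 fold change was 0.41 (SE 0.08, limma adjusted p = 0.0765, or 0.0376 with small-RNA loci left out). Cplx2, a regulator of vesicle release, and the potassium channel genes Kcnk9 and Kcnd2 had log2 fold changes of 0.27, 0.25 and 0.29 (adjusted p = 0.107, 0.120 and 0.208). Grin2c, an NMDA receptor subunit of mature granule cells, was at 5.21 ± 0.551 and 4.21 ± 0.898 FPKM (SD, n = 3 each; log2 fold change -0.26, adjusted p = 0.386). The sum of the late list lay between 733 and 739 FPKM in the controls and between 807 and 820 FPKM in cKO. Cplx2, the most abundant gene of the list, weighs most on this sum, with means of 191 and 231.5 FPKM. Snap25 and Syt1 of this list are also counted among the pan-neuronal genes below.

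Relatives and partners of the members were read in the same way, and none of the 24 tested loci of 26 genes passed by limma (15 positive and 9 negative, median 0.04). Before adjustment 6 higher and 6 lower had a p under 0.05. The E proteins, which pair with Neurod and Nhlh factors to bind DNA, all had negative log2 fold changes: Tcf12 -0.29, Tcf3 -0.24 and Tcf4 -0.19 (adjusted p = 0.0904, 0.119 and 0.187). In each of these 3 genes every cKO library was under every control. Cntn1, the nearest relative of Cntn2 in the list, was at 72.0 ± 3.27 and 59.4 ± 1.73 FPKM (SD, n = 3 each; log2 fold change -0.27, adjusted p = 0.0792, or 0.0450 with small-RNA loci left out). Sema6b had a log2 fold change of 0.25 and Gabra2 of 0.56 (adjusted p = 0.0836 and 0.0947).

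Markers of progenitors and other cells were read beside these values. Of 16 genes listed for granule neuron progenitors, Ccnd1, Mfap4 and Top2a fell (log2 fold changes -1.01, -1.88 and -0.46, limma adjusted p = 0.00305, 0.0235 and 0.0336), 13 of the 16 were negative and the median was -0.38. A limma p under 0.05 before adjustment was reached by 1 gene higher and 11 lower in cKO, against 7.82 and 9.79% of all loci tested. The list also holds genes of dividing cells in general, such as Top2a and Mki67. The call of Ccnd1 held with any 1 library left out, that of Top2a with none (adjusted p = 0.0773 to 0.151), and that of Mfap4 was lost without control 1, control 2, cKO 1 or cKO 2 (0.0914 to 0.113). The summed level of the list was 421 to 470 FPKM in the controls and 294 to 320 FPKM in cKO. Atoh1, the factor that defines these progenitors, was at 12.0 ± 1.71 and 8.65 ± 2.30 FPKM (SD, n = 3 each) and did not pass (adjusted p = 0.266). Of 9 pan-neuronal genes, 8 were positive, none passed by limma (1 before adjustment, at a p under 0.05), and the median was 0.04, with sums of 966 to 1038 and 1034 to 1116 FPKM. Of 11 Purkinje cell genes measured, 10 were positive and none passed by limma (before adjustment 4 higher and 1 lower had a p under 0.05), with a median of 0.12 and sums of 901 to 947 and 969 to 1034 FPKM. The lower one, the factor Lhx5, had the lowest p of that list, at 16.7 ± 0.937 and 13.7 ± 0.592 FPKM (SD, n = 3 each; log2 fold change -0.27, limma adjusted p = 0.104). The 6 tested genes of cerebellar nuclei and unipolar brush cells had a median of 0.05, and none passed by limma. Before adjustment 2 higher and 1 lower had a limma p under 0.05. Every cKO library was above every control for Tbr1 (log2 fold change 0.24) and under every control for Meis1 (-0.215). Eomes, a factor of unipolar brush cells, overlapped between groups. Genes of microglia were all positive (7 of 7, median 0.37), and Csf1r, a receptor these cells need to survive, rose (log2 fold change 0.48, limma adjusted p = 0.0483). All 7 had a limma p under 0.05 before adjustment, as had 7.82% of all loci tested with cKO higher. Genes of the meninges were all positive too (7 of 7, none passed and 3 had a limma p under 0.05 before adjustment, median 1.01, sums of 20.2 to 46.2 and 33.8 to 86.3 FPKM). Between control 1 and cKO 3 (1 library each), only Ptgds and Foxc1 of these were positive (0.78 and 0.18 log2 units). Col1a1, Col1a2, Col3a1, Dcn and Igf2 were negative there (-0.76, -0.71, -1.20, -1.04 and -0.15). Among glial genes Gpr37l1, a receptor of astrocytes, fell (log2 fold change -1.41, limma adjusted p = 0.0110) and Olig1, a factor of the oligodendrocyte lineage, rose (1.02, adjusted p = 0.0231). A locus named for the globin genes Hba-a1 and Hba-a2 was listed at 0 in the controls. It held 1.15 to 2.14 FPKM in cKO (limma adjusted p = 0.0177). The other locus of that name had a lower mean in cKO (3.77 ± 1.32 against 7.05 ± 4.02 FPKM, SD, n = 3 each), with overlapping groups. The globin loci Hbb-bt and Hbb-bs also overlapped, with log2 fold changes of -0.66 and -0.165. Of the 4 tested loci of red blood cell genes, 1 was thus positive and 3 were negative (median -0.40). With 1 library left out, the call of Csf1r was lost each time (adjusted p = 0.0616 to 0.195), that of Gpr37l1 without control 2, cKO 1 or cKO 2 (0.0536 to 0.0812), that of Olig1 without control 1 or any cKO library (0.0567 to 0.110) and that of the Hba-a1 locus without any 1 control or cKO 3 (0.0507 to 0.0970). The part of these cell types in the members' values was not tested.

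**Figure D4:**
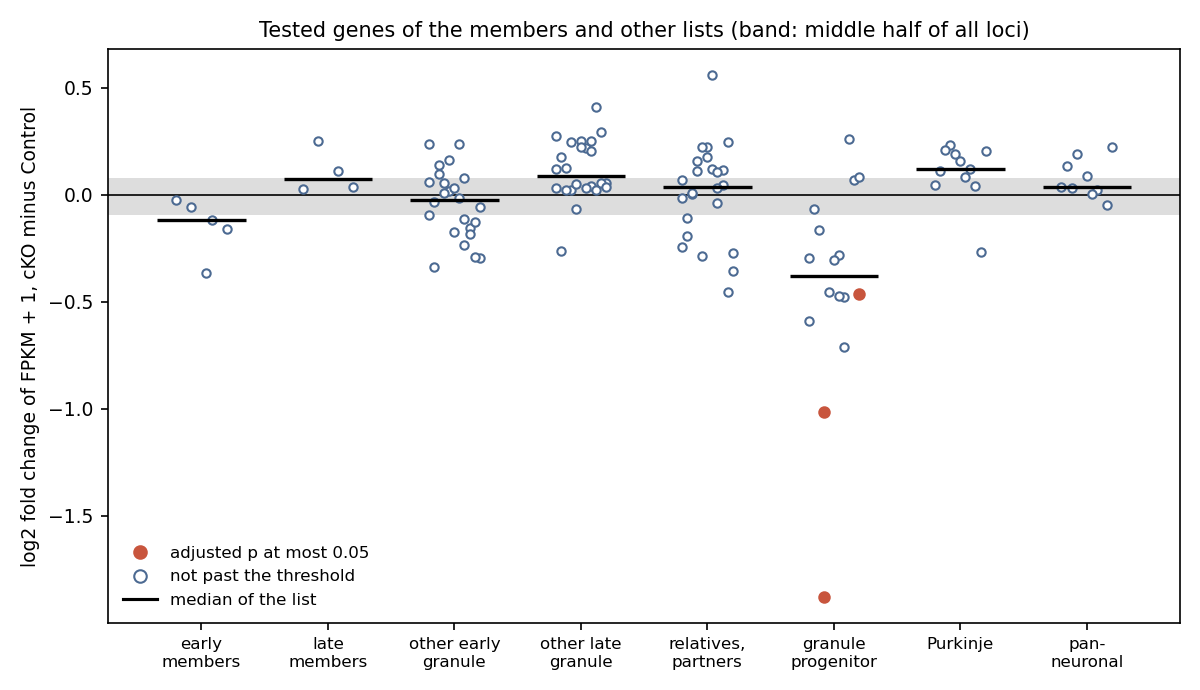
Log2 fold change of FPKM + 1 (cKO minus control) of each tested gene in the members and 6 other lists, with filled red points for genes past the adjusted p of 0.05, open points for the others, a black line for the median of each list and a grey band for the middle 50% of all loci. The 3 red points are Ccnd1, Mfap4 and Top2a, and the medians run from -0.38 in the progenitor list to 0.12 in the Purkinje list.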

How the data were processed

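Total RNA of the cerebellum was extracted with Trizol and made into libraries with the TruSeq RNA kit, per the labels' protocols. Reads were processed by the authors with CASAVA, TopHat and Cufflinks on build mm10, per the submitters' processing notes. The deposited table holds 1 value per locus and library, taken as FPKM because Cufflinks writes such loci and no label names a unit. The sources used here do not give versions, annotation, strand setting or read depth, so the precision of low values is unknown. Groups and replicate numbers follow the titles, and the description of cKO 1 carries the number 3.

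The 13612 of 23793 loci that reached 1 FPKM in 3 or more libraries were tested as log2(FPKM + 1) with limma 3.58.1 in R 4.3.3 (trend, two-sided, Benjamini-Hochberg over all loci), and single genes with an exact permutation test. On simulated data for this comparison over 13612 loci, the fit called 69 of 100 loci shifted by 0.5 on the log2 scale. It called 94 of 100 shifted by 1, and 3.55% of 169 calls were false. The noise was normal with the SD of each locus within groups, and shifts were set only on loci of higher mean level. Cbln3 lies under that level, so these shares do not apply to it. The members and lists were chosen with earlier results of these data known, and the named genes are all members, Zeb2, called genes and up to 4 genes of lowest p per list, with others as markers or partners. Some genes of the lists are not reported here. Coordinates are from GENCODE M21 (GRCm38) and promoters from RefSeq (GRCm38.p6). Alternatives were a replicate block, deposit and step set as covariates or alone, each library left out, 2 pseudocounts, 2 filters, 2 scalings, small-RNA loci (230) or of X and Y (476) left out, array weights (statmod 1.5.0) and robust variance.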

Additional observations from a re-analysis of the deposited data

How the results depend on the processing

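Over 21 alternatives, 0 members passed except with small-RNA loci left out and with robust variance estimation, where 1 passed each time, Nhlh2. The calls over all loci were 325 and 336 in those settings, against 78, and 22 with the deposit as a covariate, 30 in the larger step set alone, 30 at a mean of at least 5 FPKM, 28 without a filter, 15 with the replicate block, and 21 to 55 with 1 library left out (21 without cKO 1, 27 without cKO 2, 28 without control 2, 33 without control 1, 44 without cKO 3). Same-numbered libraries deviated together little (r = -0.027, 0.037 and 0.049), so the numbers were not taken as pairs, and with the replicate block no member's call changed (Nhlh2 adjusted p = 0.188), while Ccnd1, Mfap4 and Top2a lost theirs (0.0695, 0.166 and 0.166). Mfap4 and Top2a also lost their calls with the deposit as a covariate (0.0709 and 0.0848), in the larger step set (0.0615 and 0.167) and without a filter (0.0621 and 0.0687), and Top2a at a mean of at least 5 FPKM (0.0607) and in the first deposit (0.125). Csf1r, Gpr37l1, Olig1 and the Hba-a1 locus lost theirs with the block (0.169, 0.0802, 0.134 and 0.0933), and Csf1r, Olig1 and the Hba-a1 locus with the deposit as a covariate (0.0964, 0.059 and 0.059) and in the larger step set (0.167 each). Olig1 also lost its call without a filter (0.0583), the Hba-a1 locus in the first deposit (0.0902), and Csf1r in both (0.114 and 0.104), at a mean of at least 5 FPKM (0.114), with the step set as a covariate (0.0560), without X and Y loci (0.0527) and at a pseudocount of 0.1 (0.0516). The log2 fold change of Zeb2 was -0.77 at an adjusted p of 0.0466 with small-RNA loci left out, and -0.88 to -0.59 with 1 library left out. Other granule genes passed with small-RNA loci left out and with robust variance (2 each, Rnd2 and Slc17a7) and with array weights (1, Rnd2), and 0 with any library left out.

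The gap between late and early medians was 0.29 in the first deposit alone and 0.14 to 0.28 with 1 library left out. The early median was -0.21 in the first deposit alone and -0.19 to -0.077 with 1 library left out. The late median was 0.11 with Neurod2 counted as early, 0.038 at a mean of at least 5 FPKM, which drops Cbln3, and 0.06 to 0.11 with 1 library left out. In the first deposit alone Cbln1 was at -0.071, Neurod2 at -0.028, Nhlh1 at -0.23, Rbfox3 at 0.19, Sema6a at -0.021 and Cntn2 at -0.12 (-0.13 in the larger step set). With 1 library left out Cbln1 ranged from -0.039 (without cKO 3) to 0.118, Neurod2 from -0.012 (without control 3) to 0.051 and Cntn2 from -0.080 to 0.069 (without control 2), and Cntn2 was at 0.042 without cKO 1. Nhlh1 ranged from -0.19 to -0.070, Sema6a from -0.11 to -0.026 and Rbfox3 from 0.06 (without control 1) to 0.16. The cause was not tested. Nhlh2, Neurod1, Nhlh1, Sema6a and Rbfox3 kept their sign in all 21 alternatives, and Cbln3 in the 20 that tested it.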
